A study of Mus musculus with 2 samples.

Results

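The 4 genes of the Mef2 family, Mef2a, Mef2b, Mef2c and Mef2d, were followed through DNase-seq of mouse cerebral cortex. They are 4 of 21938 protein-coding genes on the chromosomes used, and they were chosen by name. Each gene was taken with its GENCODE M21 gene body and 100 kb on either side, and each of its annotated transcription starts was read separately. The 4 windows held 177 of 150726 peaks in replicate 1 and 135 of 155536 in replicate 2. The genes carry 43 distinct annotated starts, out of 93513 for all protein-coding genes.

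DNase-seq maps chromatin that the enzyme DNase I can reach and cut. The tissue was the left cerebral cortex of male B6CASTF1/J mice aged 14 days, the first-generation hybrid of C57BL/6J and CAST/EiJ. No treatment or mutation is named in the labels, and there was 1 group of 2 libraries. The label of replicate 1 names 3 males, so it was taken as a pool, and that of replicate 2 names 1 male. The labels number them as biological replicates 1 and 2, yet both carry the same donor identifier. The labels therefore do not settle whether the spread between them is a spread between animals. With 1 group there was no condition to test, and values are given for each library beside the same values over the whole genome. The deposited files do not separate the parental alleles, and the sequences printed here are those of the reference genome.

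MEF2 proteins are transcription factors of the MADS-box class that bind an A/T-rich element as dimers. In neurons they are known as switches that follow calcium entry: class IIa histone deacetylases hold them silent, and calcineurin and calcium-dependent kinases release them. In the cortex they are known for limiting the number of excitatory synapses and for the differentiation of neurons, Mef2c being the member best known there, while Mef2b is best known from germinal centre B lymphocytes. Opening at a gene's start is a measure of access, not of its RNA. In whole tissue, fewer cells with an open site and less opening in each cell cannot be told apart.

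Every member had a promoter peak in both libraries, where a promoter peak is one within 1000 bp of an annotated start; 66.7% of protein-coding genes did. The signal of a peak is the highest density of DNase cuts in it, scaled by the authors to sequencing depth. Mef2a and Mef2d each opened strongly at the CpG-rich 5′ end of the gene. Mef2c was closed at its 5′ end and opened at weaker starts inside the gene. The strongest peak near a Mef2b start lay at the starts of Rfxank and Borcs8, and the starts that belong to Mef2b alone had a weak peak.

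The sequences under these promoters show how unlike the entry points of the 4 genes are. They are printed from the plus strand of mm10, and capitals mark the bases covered by a footprint of both libraries. A footprint is a short stretch inside an open site that was cut less than its surroundings. Footprint overlaps under 7 bases, or crossing an edge of the stretch, are left in lower case. For Mef2a and Mef2d the stretch upstream of the first exon is shown, for Mef2b the peak shared with its neighbours, and for Mef2c the internal peak that holds no annotated exon.
Mef2a, chr7:67372859-67373000, gene on the minus strand: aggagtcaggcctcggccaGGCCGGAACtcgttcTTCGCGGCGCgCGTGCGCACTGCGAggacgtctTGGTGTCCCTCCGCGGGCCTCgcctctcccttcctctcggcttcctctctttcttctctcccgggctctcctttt
Mef2d, chr3:88142181-88142371, gene on the plus strand: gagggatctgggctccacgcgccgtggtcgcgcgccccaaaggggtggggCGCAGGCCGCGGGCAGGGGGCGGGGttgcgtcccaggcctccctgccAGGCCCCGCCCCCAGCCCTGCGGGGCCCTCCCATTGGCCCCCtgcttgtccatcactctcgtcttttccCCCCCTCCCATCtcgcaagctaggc
Mef2b with Rfxank and Borcs8, chr8:70139161-70139420: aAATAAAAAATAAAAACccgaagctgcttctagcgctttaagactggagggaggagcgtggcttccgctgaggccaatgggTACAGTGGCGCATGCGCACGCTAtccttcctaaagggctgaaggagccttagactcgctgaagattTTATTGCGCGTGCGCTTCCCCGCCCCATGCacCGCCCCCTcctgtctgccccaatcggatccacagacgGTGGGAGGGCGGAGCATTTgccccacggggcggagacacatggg
Mef2c, chr13:83523601-83523900, gene on the plus strand: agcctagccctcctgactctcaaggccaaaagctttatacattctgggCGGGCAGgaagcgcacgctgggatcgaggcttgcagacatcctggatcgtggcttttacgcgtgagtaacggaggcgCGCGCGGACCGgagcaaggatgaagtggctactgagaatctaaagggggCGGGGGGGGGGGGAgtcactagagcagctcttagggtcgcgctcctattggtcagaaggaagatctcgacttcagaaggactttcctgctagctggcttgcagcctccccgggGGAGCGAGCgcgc

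The word GGGCGG, matched by SP and KLF factors, occurred 2 times in the Mef2d stretch, 4 times in the shared Mef2b peak and 2 times in the Mef2c peak. It was not in the stretch printed for Mef2a but was in the whole Mef2a promoter site, chr7:67372781-67373000, which includes exon sequence. The word GCATGCGC, matched by NRF1, occurred 2 times in the shared Mef2b peak, counting both strands. The matches lie on opposite strands and overlap each other in the same palindromic stretch. Over the 118593 shared peaks of the genome, those that overlap between the libraries by at least 1 bp, 17.9% held GGGCGG and 1.38% held GCATGCGC on either strand. A match is a description of the letters only.

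**Figure D1:**
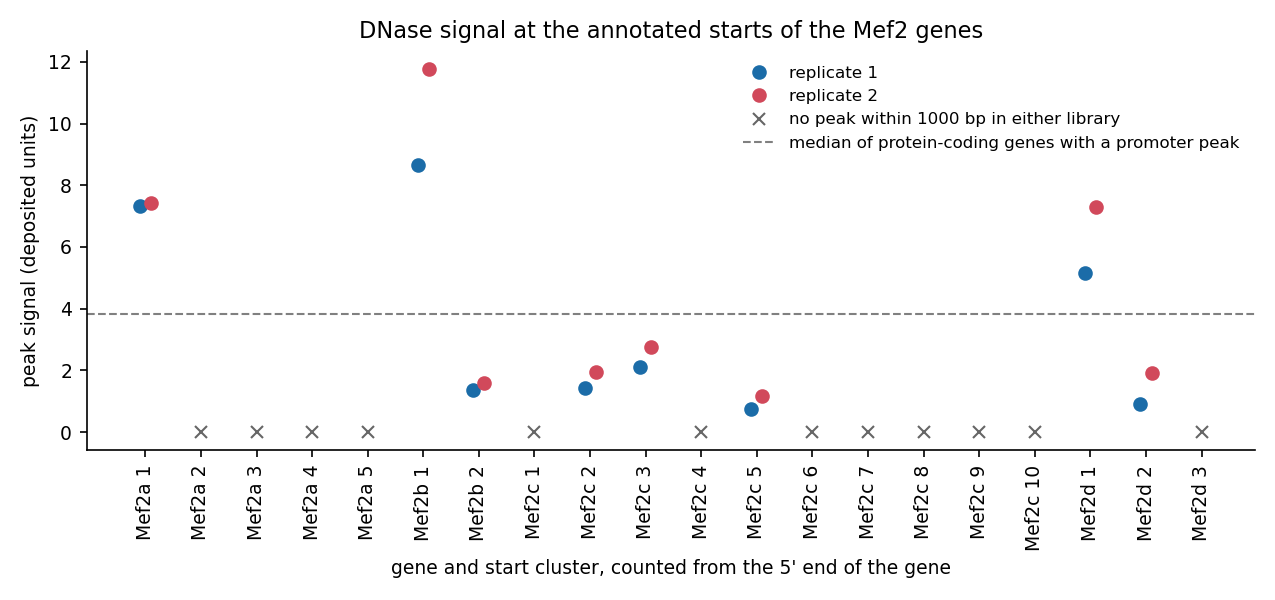
Peak signal (vertical axis, deposited units) at each of the 20 clusters of annotated starts, in order from the 5′ end of each gene; points are the 2 libraries, crosses are clusters with no peak within 1000 bp in either, and the dashed line is the median of 14628 genes with a promoter peak. The first clusters of Mef2a, Mef2b and Mef2d lie above the line in both libraries and every Mef2c cluster lies below it.

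Mef2a (chr7:67231163-67372858, minus strand) is expressed in many tissues and is known in the heart as well as in neurons. Its promoter peak measured 7.33 in replicate 1 and 7.41 in replicate 2, a mean of 7.37 ± 0.0588 (SD, n = 2). The libraries lay almost on top of each other, at the 78.1 percentile of the 14628 open genes. All of this signal sat at 1 place: the 5′ cluster of 2 starts, which serves 7 transcripts and has 117 CpG dinucleotides in 1000 bp. The other 5 starts of the gene, in 4 clusters inside the gene, had no peak within 1000 bp, and the nearest peak was between 5894 and 36905 bp away.

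Mef2d (chr3:88142372-88172086, plus strand), also a widely expressed member, measured 5.17 in replicate 1 and 7.29 in replicate 2. The mean was 6.23 ± 1.50 (SD, n = 2), at the 70.5 percentile. Replicate 2 was the higher by 0.50 on the log2 scale, while peaks shared by the libraries were higher in replicate 2 by a median of 0.25, with an SD of 0.43 over 118593 peaks. The step at Mef2d was therefore within the spread of peaks in general. The 5′ cluster of 4 starts has 111 CpG dinucleotides in 1000 bp. A second start inside the gene had a peak of 0.909 and 1.90 at 500 and 400 bp from it, and the third cluster had no peak within 1000 bp.

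Mef2c (chr13:83504034-83667080, plus strand) had the lowest of the strongest promoter peaks, with 2.10 in replicate 1 and 2.76 in replicate 2. The mean was 2.43 ± 0.468 (SD, n = 2), at the 34.9 percentile, below the genome median of 3.84. The 2 libraries of Mef2c did not reach the lower library of any other member's strongest peak. Its 27 starts fall into 10 clusters. The cluster at the 5′ end, with 3 starts of 6 protein-coding transcripts, had no peak within 1000 bp, and the nearest peak was 13741 bp away in replicate 1 and 13721 bp in replicate 2. That end of the gene has 13 CpG dinucleotides in 1000 bp.

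The strongest Mef2c start cluster was the third, about 20 kb into the gene, where 10 starts lie between chr13:83524291-83524920 and the peak measured 2.10 and 2.76. The second cluster, a single start at 83523473, has a peak of 1.43 and 1.49 at 128 and 148 bp from it, whose sequence is printed above. The strongest peak within 1000 bp of that start measured 1.43 in replicate 1 and 1.96 in replicate 2. The fifth cluster, with 2 starts, measured 0.743 and 1.16. The other 7 clusters, 6 of them within the gene and 1 at its 5′ end, had no promoter peak in either library. Thus 13 of the 27 Mef2c starts were open, in 3 groups of unequal height.

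Mef2b (chr8:70139711-70167488, plus strand) is the member whose label needs the most care. A single transcript, Mef2b-205, starts 2 bp from a start of Borcs8, a gene for a subunit of a complex that positions lysosomes. It also lies 557 bp from a start of Rfxank, which encodes a regulator of MHC class II genes. The strongest peak within 1000 bp, chr8:70139161-70139440 at the Rfxank start, measured 8.65 and 11.8, a mean of 10.2 ± 2.20 (SD, n = 2) at the 91.7 percentile. The peak over the Mef2b-205 start itself measured 2.23 and 2.62. The other 4 transcripts start at 70152778 and 70152781, away from any other gene, and there the peak measured 1.35 and 1.60, a mean of 1.48 ± 0.172 (SD, n = 2). At that cluster Mef2b was lower than every other member's strongest promoter, in each library.

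By the rule of the strongest peak the order was Mef2b, Mef2a, Mef2d and Mef2c. Mef2a was above Mef2d in each library, at 7.33 against 5.17 in replicate 1 and 7.41 against 7.29 in replicate 2. The gap in replicate 2 was small, and the means differed by less than the SD of Mef2d. With 2 libraries the size of this difference is not settled, and their order rests on a narrow margin. With the cluster that Mef2b does not share, the order was Mef2a, Mef2d, Mef2c and Mef2b, and the values of Mef2c and Mef2b did not overlap.

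Of the 43 annotated starts, 23 had a peak within 1000 bp in both libraries, against 56.4% of all starts of protein-coding genes. Those were 2 of 7 for Mef2a, 3 of 3 for Mef2b, 13 of 27 for Mef2c and 5 of 6 for Mef2d. Each library alone gave 23 open starts as well, so no start was open in 1 library only. The 20 starts without a peak also had no interval of raised cutting at the 0.05 false discovery rate within 1000 bp, in either library. Of all starts of protein-coding genes without a peak in either library, 97.2% had none as well. The closed Mef2 starts had 4 to 23 CpG dinucleotides in 1000 bp and the open ones 8 to 117.

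**Figure D2:**
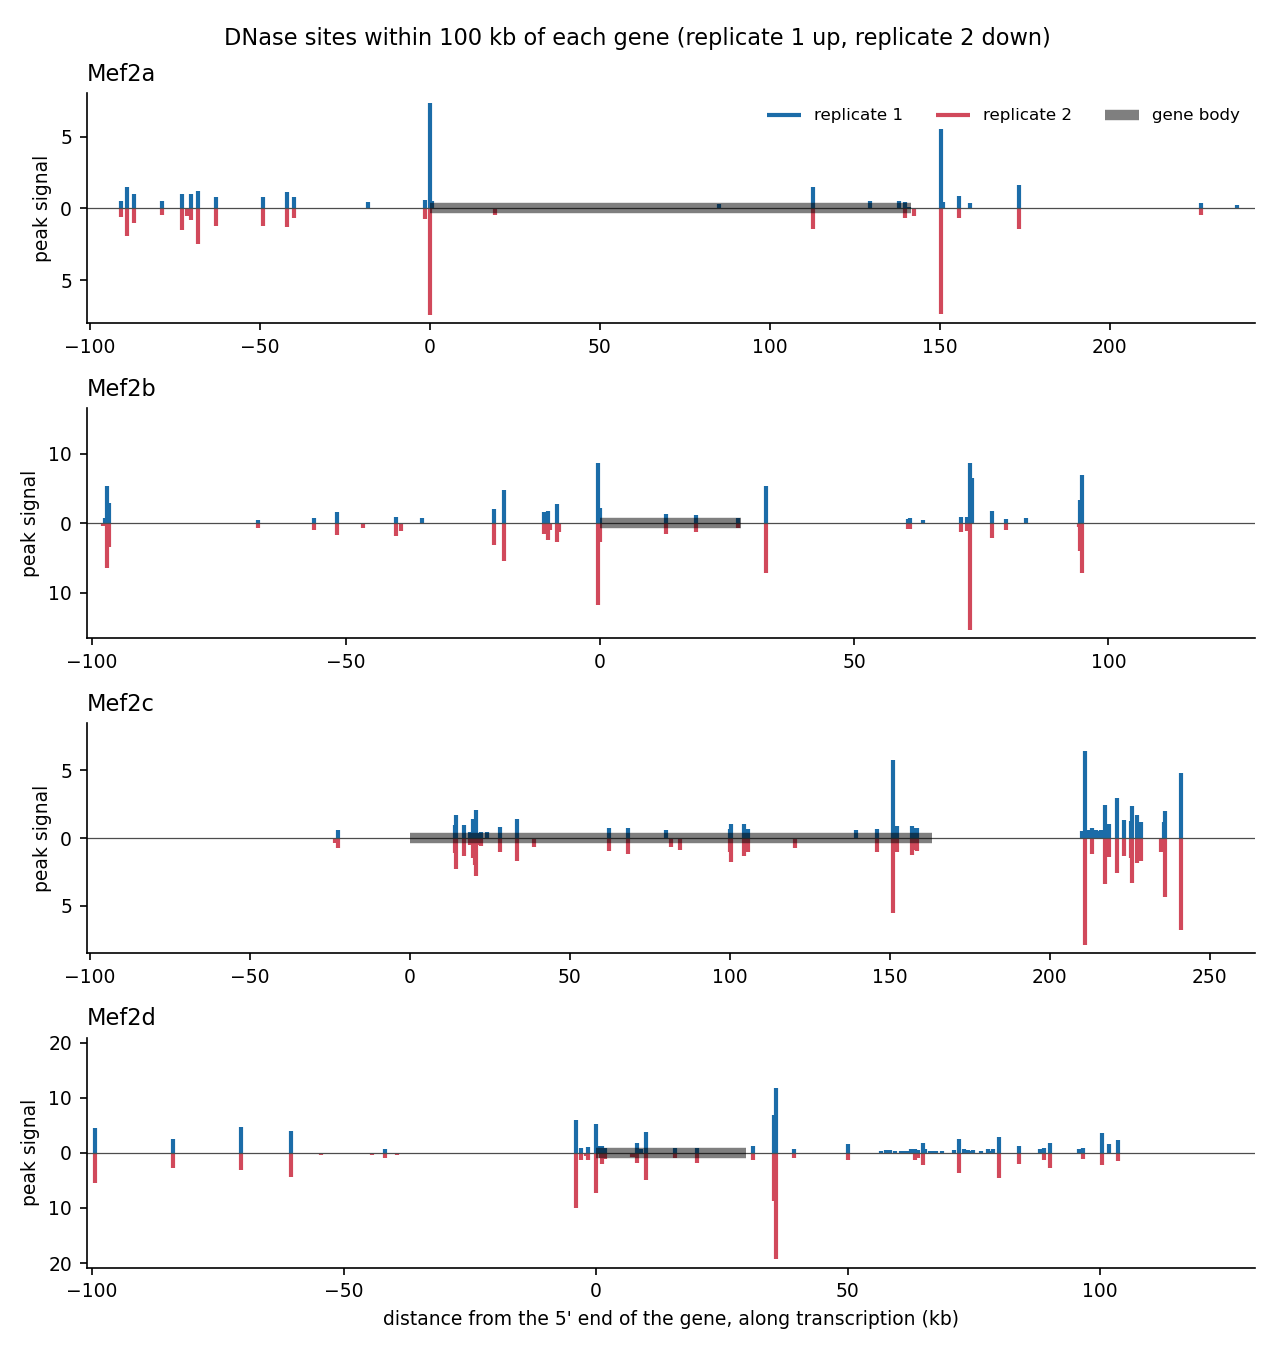
Sites within each window by distance from the gene's 5′ end along transcription (kb, horizontal axis), with the peak signal of replicate 1 drawn upward and of replicate 2 downward; the grey bar is the gene body. Mef2a shows 1 tall site at its 5′ end and few inside, while Mef2c shows none at its 5′ end and many along its body and beyond its 3′ end.

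Around the genes, peaks of both libraries were merged into 192 sites, of which 112 were found in both, 58 in replicate 1 only and 22 in replicate 2 only. The Mef2a window held 28 and 22 peaks, the Mef2b window 31 and 32, the Mef2c window 51 and 42, and the Mef2d window 67 and 39. Per 100 kb and averaged over libraries these were 7.32, 13.8, 12.8 and 23.1 peaks, beside a median of 8.67 for the same window around all protein-coding genes. Mef2a was at the 39.7 percentile of those genes and Mef2d at the 98.5 percentile.

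The peaks of each member lay in different places. Counted by their centres, Mef2c had 26 peaks in its body in replicate 1 and 27 in replicate 2, or 15.9 and 16.6 per 100 kb. The 100 kb downstream of Mef2c held 24 and 13, so the body was the denser part in replicate 2 only. Mef2a, a gene of similar length, had 7 and 3 in its body, or 4.94 and 2.12 per 100 kb. Among 1479 protein-coding genes within 1.5-fold of the length of Mef2c, the median was 7.14 peaks per 100 kb of body, and Mef2c stood above 95.9% of them. Mef2a stood above 16.2% of 1735 genes of its length. The 100 kb upstream of Mef2c held only 1 peak in replicate 1 and 2 in replicate 2, whereas the 100 kb upstream of Mef2a held 14 in each. The short Mef2d gene had 8 and 9 peaks in its body, above 97.4% of 4649 genes of like length, and Mef2b had 3 in each library.

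**Figure D3:**
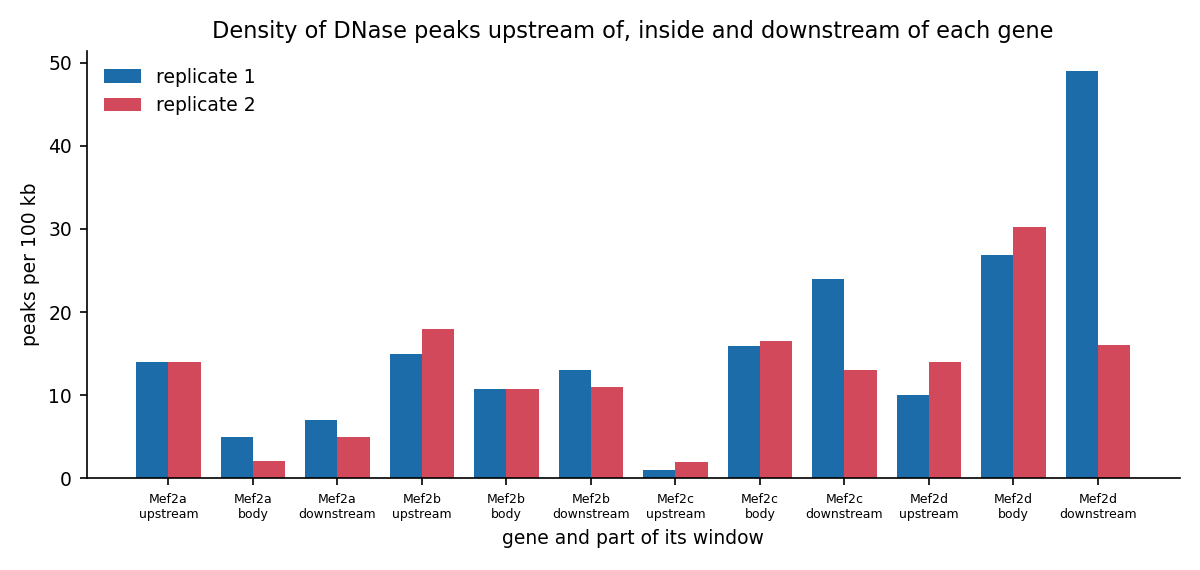
Peaks per 100 kb (vertical axis) in the 100 kb upstream, the gene body and the 100 kb downstream of each gene, with 1 bar per library. The Mef2c body stands at 15.9 and 16.6 and the Mef2a body at 4.94 and 2.12, and the flank downstream of Mef2d differs most between the libraries, 49 against 16.

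Taking the summed signal of the sites found in both libraries, Mef2a kept 23.8% of its window's signal at its own starts. Mef2c kept 11.8% there and had 35.5% in distal sites of its body and 37.1% in distal sites of its flanks. Distal means over 1000 bp from any annotated start. Mef2d kept 8.27% at its own starts and 54.3% lay at the starts of other genes. Mef2b kept 1.88% at the starts it does not share while 77.2% lay at those of other genes, in a gene-dense window with starts of 12 other protein-coding genes. With the peak over the Mef2b-205 start counted as its own, the share was 4.96%, and with every site within 1000 bp of a Mef2b start it was 17.9%. By mean signal the tallest site of the Mef2b window was the promoter of Slc25a42, a mitochondrial carrier gene, at 8.61 and 15.3. In the Mef2d window the peaks at 1700113A16Rik, an antisense transcript, were the tallest, at 11.7 and 19.3. In the Mef2a window 1 other protein-coding gene has a start, Lysmd4, with 5.52 and 7.37. No other protein-coding gene starts in the Mef2c window, which holds the long noncoding gene C130071C03Rik.

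In each window the 3 strongest distal sites found in both libraries are described. The strongest of the 12 was chr3:88138341-88138540, at -3921 bp from the nearest Mef2d start. It measured 5.91 in replicate 1 and 10.0 in replicate 2, a mean of 7.97 ± 2.91 (SD, n = 2). Of 85698 distal peaks shared by the libraries, 140 were as high or higher. This site exceeded the Mef2d promoter itself in each library. The next Mef2d sites were an intronic one at chr3:88152201-88152400 with 3.76 and 4.85, and one at chr3:88242621-88242800, beyond the gene, with 3.61 and 2.25. The last of these was the lower in replicate 2, where most sites were higher.

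The 3 distal sites of Mef2c were tall ones. The site at chr13:83715061-83715280, beyond the 3′ end of Mef2c and at -6210 bp from the nearest start of C130071C03Rik, measured 6.46 and 7.86. A site inside C130071C03Rik at chr13:83744981-83745280 measured 4.78 and 6.78. The third, chr13:83654981-83655160, lay in an intron of Mef2c and measured 5.75 and 5.52, a mean of 5.64 ± 0.164 (SD, n = 2). All 3 were above the Mef2c promoter in both libraries and at the 99.5 percentile of shared distal peaks or higher. In contrast, the distal site with the highest mean measured 1.25 and 2.47 in the Mef2a window and 2.06 and 3.10 in the Mef2b window, the latter in an intron of Ncan, the gene of a brain proteoglycan.

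The following sites are shown because they were taller than the promoters of the genes whose windows they lie in. Plus strand of mm10, with bases under a footprint of both libraries in capitals.
Site upstream of Mef2d, chr3:88138341-88138540: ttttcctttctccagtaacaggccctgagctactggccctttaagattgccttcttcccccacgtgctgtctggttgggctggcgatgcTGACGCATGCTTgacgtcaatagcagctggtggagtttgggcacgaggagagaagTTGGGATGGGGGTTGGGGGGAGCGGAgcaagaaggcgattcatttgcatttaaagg
Site in an intron of Mef2c, chr13:83654981-83655160: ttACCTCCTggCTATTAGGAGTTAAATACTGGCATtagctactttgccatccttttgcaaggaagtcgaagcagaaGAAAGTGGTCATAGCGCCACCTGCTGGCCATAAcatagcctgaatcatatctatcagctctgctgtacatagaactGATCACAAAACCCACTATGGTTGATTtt
Site beyond the 3′ end of Mef2c, chr13:83715061-83715280: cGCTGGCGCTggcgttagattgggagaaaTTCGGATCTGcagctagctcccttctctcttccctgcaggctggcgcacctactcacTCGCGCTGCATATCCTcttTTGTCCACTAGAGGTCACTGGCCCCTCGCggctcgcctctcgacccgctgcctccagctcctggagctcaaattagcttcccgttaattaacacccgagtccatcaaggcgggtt

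The site upstream of Mef2d held TGACGTCA, the full cyclic AMP response element, 1 time, and ATGCAAAT, the octamer, 1 time. The first occurs in 0.856% and the second in 1.40% of all shared peaks. The site in the Mef2c intron held the CTCF consensus within 5 bp of a footprint overlap of both libraries. CTCF is a DNA-binding protein known for marking chromatin loop ends, and its consensus was in 5.07% of shared peaks. In the windows 4 of 115 shared peaks held it, all within 5 bp of a replicate 1 footprint. Over all shared peaks the same was true of 5668 of the 6018 with the consensus, so this is not particular to the windows. The site beyond Mef2c held TAATTA, a homeodomain core, which 1 footprint of each library touched, although it lies outside the capitals. TAATTA was in 2 of the 115 peaks, beside 2.91% of all shared peaks. TGACGTCA was in 3 of the 115 peaks, GGGCGG in 28 and GCATGCGC in 5.

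The MEF2 consensus, the A/T-rich element that the proteins themselves bind, was in 4 of the 115 shared peaks of the windows, 3.48% beside 2.42% of all shared peaks. Each window had 1 such peak. The words were these, given with the distance from the nearest start of the member in bp.
Mef2a, at 2 and overlapping the annotated start, chr7:67372851-67372860: CTATTTTTAG
Mef2b, at -11006 and between genes, chr8:70128700-70128709: CTATTTATAG
Mef2c, in an intron at -21623, chr13:83603975-83603984: CTAAAAATAG
Mef2c, in the same peak at -21601, chr13:83603997-83604006: CTAAAAATAG
Mef2d, upstream at -1574, chr3:88140793-88140802: CTAAAAATAG

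The peak with the Mef2a word is the promoter peak, at 7.33 and 7.41. The other peaks were lower: 1.59 and 1.52 for Mef2b, 0.663 and 0.995 for Mef2c, and 1.03 and 1.38 for Mef2d. The median mean signal of shared distal peaks was 0.680. None of the words lay in a replicate 1 footprint extended by 5 bp, where 0.282% of all shared peaks have one, and a replicate 2 footprint touched the word at the Mef2a start. With 4 peaks a count of 0 says little, and nothing about binding follows from it.

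Most window peaks held a footprint, as did most peaks of the genome. In replicate 1, 152 of 177 window peaks (85.9%) held a footprint, close to the 83.7% of all peaks, and in replicate 2 128 of 135 (94.8%), against 83.2%. Window peaks were also stronger than all peaks, with median signals of 0.824 against 0.549 in replicate 1 and 1.30 against 0.663 in replicate 2. The part of signal in the footprint shares was not tested. In the shared peaks of the windows there were 386 footprints of replicate 1, of which 256 (66.3%) overlapped one of replicate 2. Over all shared replicate 1 peaks of the genome this share was 62.1%.

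**Figure D4:**
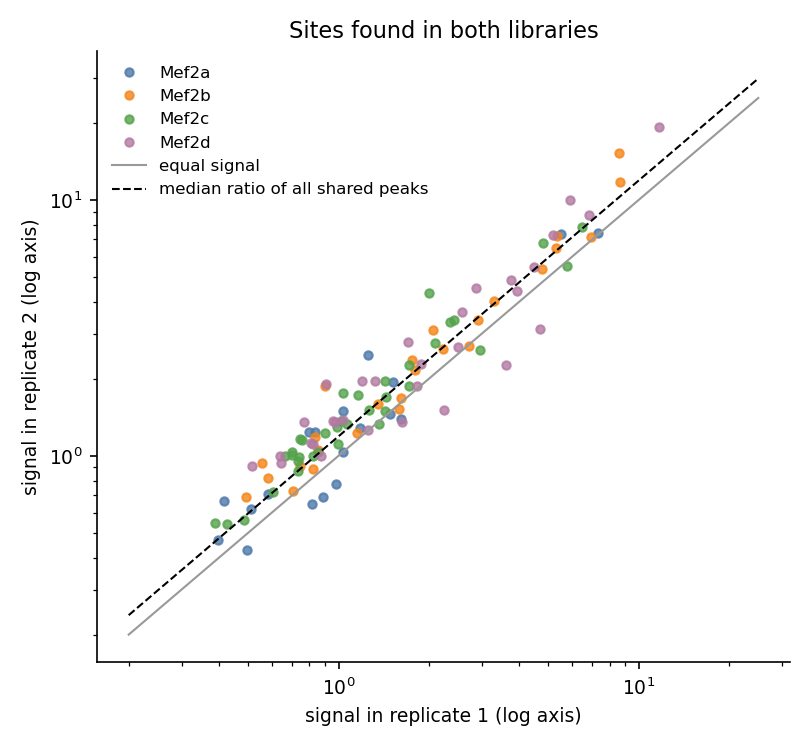
Signal of the 112 sites found in both libraries, replicate 1 against replicate 2 on log axes, coloured by window; the grey line is equal signal and the dashed line the median ratio of all shared peaks. The median log2 ratio of the sites was 0.355, beside 0.253 for all shared peaks, which is the dashed line. Of the 112 sites, 96 were higher in replicate 2, and the same share over all shared peaks was not counted.

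Between the libraries, 115 of 177 replicate 1 peaks in the windows (65.0%) overlapped a replicate 2 peak, against 78.7% of all replicate 1 peaks. In the other direction 113 of 135 (83.7%) did, against 76.3%. Shared window peaks were higher in replicate 2 by a median of 0.36 on the log2 scale (SD 0.34, n = 115), a shift of the same sign as the 0.25 over the genome and within one SD of it. Of the 112 sites, 3 were more than 2-fold apart, beside 3.89% of all shared peaks. One was the peak of 0.909 and 1.90 near the second Mef2d start, one lay in the Mef2b window with 0.900 and 1.87, and one lay in C130071C03Rik with 2.00 and 4.32. All 3 were higher in replicate 2. The tallest site found in replicate 1 only, chr8:70212661-70212920 with 6.48, stands beside the Slc25a42 promoter peak. It has no peak of its own in replicate 2 but does have an interval of raised cutting and 6 footprints there. Such an interval of the other library was present at 11 of the 58 sites of replicate 1 only and at 8 of the 22 of replicate 2 only. The same share over the whole genome was not counted. These counts are therefore not read as particular to the windows.

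The lowest share in replicate 1 was in the Mef2d window, where 33 of 67 replicate 1 peaks were shared (49.3%). Its ratio of replicate 2 to replicate 1 peaks was 0.582. Of 5688 windows of protein-coding genes with a mean of at least 30 peaks, 57 (1.00%) were as low, and 90% of windows lay between 0.756 and 1.37. The excess peaks lay together, downstream of Mef2d and around Mir9-1, a gene of the microRNA miR-9, known for its role in neural progenitors. This stretch was singled out after its values were seen. Within 25 kb of the Mir9-1 hairpin there were 42 peaks in replicate 1, of which 11 were shared, and 10 peaks in replicate 2. The rest of the Mef2d window held 25 and 29.

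The longest unbroken run of replicate 1 sites in the stretch had 11 of them in 6632 bp, chr3:88198889-88205520, over the noncoding genes AW047730 and AI849053. Their signals were low, from 0.284 to 0.677, and 5 of the 11 were also in the stricter list of replicate 1. Intervals of raised cutting covered 2638 bp of the run in replicate 1 and 0 bp in replicate 2. The Mef2c window repeated this on a smaller scale: a second miR-9 gene, Mir9-2, lies 85926 bp from the nearest Mef2c start. There the longest run had 6 replicate 1 sites in 2687 bp, chr13:83717932-83720618, upstream of C130071C03Rik, with signals of 0.275 to 0.601. Within 25 kb of Mir9-2 there were 24 peaks in replicate 1, of which 13 were shared, and 13 in replicate 2, of which 12 were.

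The tall sites of the same stretches did not follow the low ones. The promoter peaks of Gm3764, a noncoding gene whose body spans Mir9-1, reached 2.86 in replicate 1 and 4.52 in replicate 2. The strongest of C130071C03Rik in each library reached 2.42 and 4.32. Around the third copy, Mir9-3, which lies 12132406 bp from the nearest Mef2a start, there were 25 peaks in replicate 1 and 23 in replicate 2, with 11 shared in each. All 3 hairpins give the same mature miRNA, printed from RefSeq (GRCm38.p6) with its seed, bases 2 to 8, in capitals because it shows that 2 of the windows hold copies of 1 miRNA.
mmu-miR-9-5p: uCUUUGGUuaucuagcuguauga

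**Figure D5:**
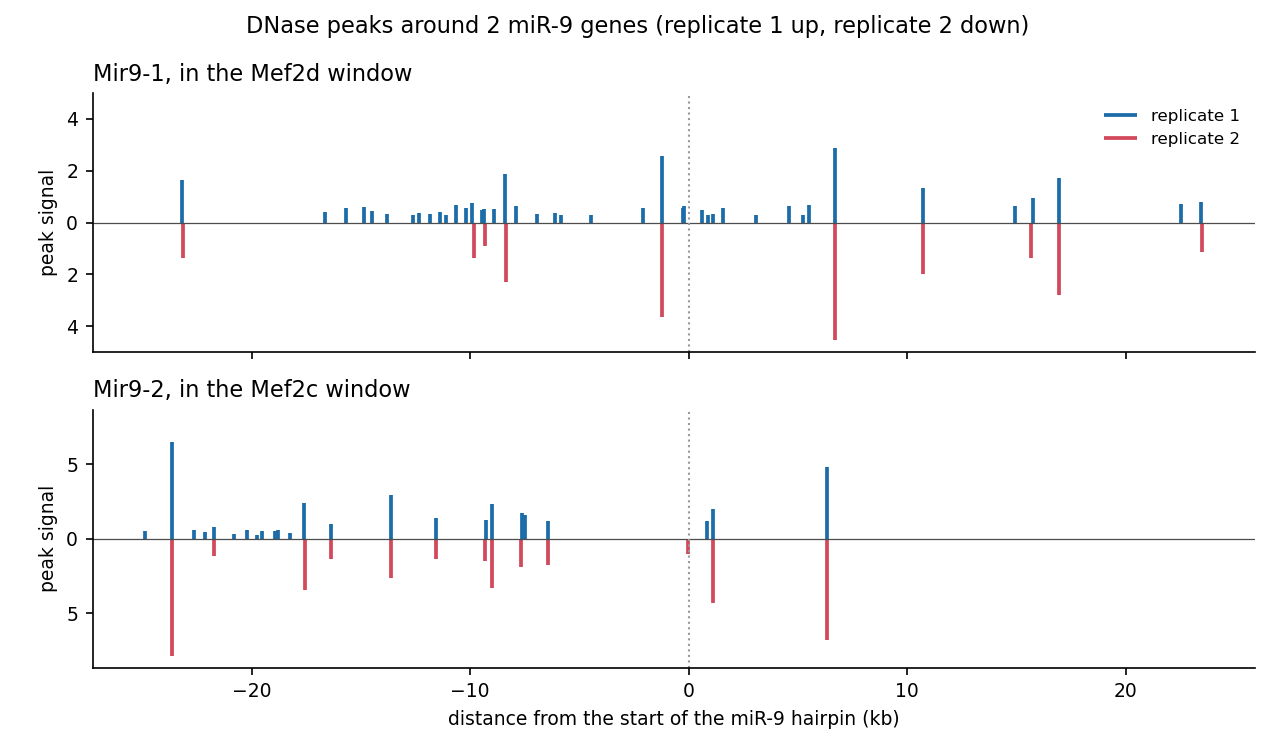
Peak signal by distance from the start of the miR-9 hairpin (kb, horizontal axis) for Mir9-1 in the Mef2d window and Mir9-2 in the Mef2c window, replicate 1 upward and replicate 2 downward. Many low bars, with signals under 1, stand in replicate 1 with no counterpart in replicate 2, while the tall bars stand in both.

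The cell make-up of the libraries was read from promoter peaks of marker genes. All 8 markers of excitatory neurons were open in both libraries, 7 of 8 of inhibitory neurons, 6 of 6 of astrocytes and 5 of 6 of the oligodendrocyte lineage. Those of microglia and endothelium were open for 4 of 6 each, those of striated muscle for 3 of 8 and those of B lymphocytes for 1 of 6, beside 66.7% of all protein-coding genes. Without a peak in either were Sst, Cldn5 and Tek, and Mog, P2ry12 and Aif1 had one in replicate 2 only. From replicate 1 to replicate 2 the summed promoter signal went from 20.99 to 27.5 for excitatory markers and from 7.71 to 6.58 for inhibitory ones. For astrocyte markers it went from 7.86 to 8.54, with Gfap falling from 3.14 to 2.08 and Sox9 rising from 2.74 to 4.05. Oligodendrocyte lineage markers went from 7.03 to 8.30, microglial ones from 4.15 to 4.84 and endothelial ones from 2.99 to 2.82. The sums count Mog, P2ry12 and Aif1 in replicate 2 only. Protein-coding genes open in both libraries were higher in replicate 2 by a median of 0.22 on the log2 scale. The part of such differences in the peaks seen only in replicate 1 was not tested, nor was that of pooling 3 males in it.

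The genes that act with MEF2 were open throughout, 17 of 17 partners and 6 of 6 genes placed downstream of MEF2 in neurons, beside 66.7% of protein-coding genes. Among partners the highest promoters were those of Hdac4, a class IIa histone deacetylase, at 13.8 and 19.4, of the stress kinase Mapk14 at 11.3 and 13.6, and of Ppp3ca, the main calcineurin catalytic subunit, at 11.0 and 12.7. The other class IIa members differed widely: Hdac5 measured 8.94 and 13.0, Hdac9 1.83 and 3.66, and Hdac7 0.767 and 0.725. Among the downstream genes the highest were the protocadherin gene Pcdh10 at 8.85 and 11.8, the synaptic scaffold gene Homer1 at 7.11 and 9.93, and Arc, an activity-induced gene, at 7.08 and 8.40.

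Likeness to other genes was measured as the Euclidean distance over 4 log2 values, the promoter signal and the number of window peaks in each library, against 14627 genes. Nearest to Mef2c were Rimbp2 at 0.163, Pakap at 0.173 and Cerk at 0.200. Nearest to Mef2a were Gm9970 and Nrbp1, with equal values, both at 0.143, and Supt3 at 0.146. Borcs8 and Rfxank were at 0 from Mef2b, since they share its strongest peak and its count of peaks, followed by Crebrf at 0.0678. The nearest to Mef2d were farther off: Pmepa1 was at 0.415, Cyth3 at 0.417 and Zfp324 at 0.418. The members were farther from each other than from these genes, but these were picked as the nearest, so that order says little. Distances between members ran from 0.891 between Mef2a and Mef2b to 3.03 between Mef2b and Mef2c. A broader yardstick is the median distance from a member to all genes compared with it. Mef2a, Mef2b and Mef2d lay nearer to each other than the median of either member of the pair, as did Mef2c and Mef2d. Mef2c lay farther than those medians from Mef2a and from Mef2b. Every Mef2b distance uses the peak at the Rfxank and Borcs8 starts, at 8.65 and 11.8. Its unshared start cluster measured 1.35 and 1.60, nearer to the Mef2c promoter at 2.10 and 2.76. Distances with that cluster were not computed, so the place of Mef2b among the members holds for the shared peak only.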

How the data were processed

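DNase-seq peaks, footprints and false discovery rate intervals of 2 libraries, replicates by the labels, were used. Per the file headers and notes deposited with them, the authors made each file from that library's own mm10 alignments. The labels and notes name no peak caller, version or read depth. The deposited signal is the authors' peak height scaled to depth; values under 1 were whole multiples of a step of 0.00474 in replicate 1 and 0.00614 in replicate 2, each within 0.05 of a step. The median peak was 116 and 108 steps, which limits the precision of low peaks. The deposited intervals carry a q-value of at most 0.05 each. Peaks of the larger list that overlap another of the same list were 2.00% and 1.37%.

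Gene models were GENCODE M21 on GRCm38 (mm10), on 21 chromosomes. Starts within 500 bp were joined into clusters. Peaks were shared if they overlapped by 1 bp. Consensus words were matched on both strands. No test between groups was possible, and percentiles describe these libraries. The members, the gene lists and the words were chosen with earlier results of these data known. The named genes were the members, the 3 strongest distal sites per window, protein-coding neighbours in the window, the 3 nearest genes per member, and the 3 highest partners and downstream genes. Overlap, ratio, promoter and word counts were tested on simulated data. Alternatives were the promoter distance, starts, peak list, flank, overlap, scaling, footprint rule and leaving out 1 library. Intervals were joined in pandas 2.3.3 and NumPy 2.4.6 under Python 3.11.15, and sequence was read with pysam 0.24.0.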

Additional observations from a re-analysis of the deposited data

How the results depend on the processing

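Of 77 results under alternative settings, 65 stayed within 1.5 times the reported count or within 1 SD of the reported value, 12 moved and 0 changed sign. Leaving out 1 library could not move a promoter signal or the footprint share, since their SD came from the same 2 libraries. The log2 ratio was judged against the SD over peaks (0.34), and the shared percentage against the SD between its 2 directions (13.2). Both limits are wide, so the count of 65 is not a measure of stability. The open starts were 23 under every setting except promoter distances of 2500 bp (29) and protein-coding transcripts alone (18). The promoter signal of Mef2c moved to 5.64 at 2500 bp, since that distance takes in the intronic site with the CTCF consensus, and with the 5′ end of the gene alone it gave no value, since no peak lies there. Mean window counts fell with the stricter list to 16 for Mef2a and 26.5 for Mef2c. With no flank they fell, as fewer bases are counted, to 6, 4, 26.5 and 9.5 for Mef2a, Mef2b, Mef2c and Mef2d (peaks overlapping the body, where the report places peaks by their centre), and with 50 kb to 15 for Mef2a. Without the flanks 78.7% of replicate 1 peaks were shared and 2 peaks held the MEF2 consensus; inside extended footprints 0 did. Without the 50 kb around Mir9-1, an alternative chosen after seeing the data, the Mef2d window held a mean of 27 peaks and 77.0% of replicate 1 peaks were shared. With signals divided by each library's median the log2 ratio of shared window peaks was 0.05. No paired analysis was possible because there is 1 group.

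Limits: 2 libraries give no spread between conditions, and both carry the same donor identifier. Read totals are not given, so low peaks cannot be compared for depth. Peak signal is a height, not an area. Starts of overlapping genes share peaks, as for Mef2b, and reads of the 2 parental alleles were not separated here.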
